A study of Caenorhabditis elegans with 16 samples.

Results

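The chemoreceptor genes with measurable transcript were the protein-coding genes of Caenorhabditis elegans whose name has the form used for chemoreceptors and whose level was high enough. The name had to be sr with 1 or 2 further letters, or str, followed by a number, or odr-10. The members were selected on their level, which had to reach a mean of 1 TPM (transcripts per 1e6) over 16 libraries. The levels are therefore given as a description. Of 46904 genes, 1329 had such a name and 54 of these met the level. The deposited descriptions call 41 of the 54 serpentine or transmembrane receptors, and the word member below means only these 41. The other 13 share the form of the name but encode serpins, kinases and other proteins, which goes against the label, and they are described at the end. Of the 1316 chemoreceptor genes, 1275 lay below the level, among them odr-10, the receptor for the odor diacetyl, with a mean of 0.843 TPM. Just inside were srx-38 with a mean of 1.02, str-144 with 1.05 and srz-99 with 1.06 TPM, and just outside were srv-7 with 0.983, str-41 with 0.939 and srh-71 with 0.939 TPM.

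Chemoreceptors of C. elegans are G protein-coupled receptors in the cilia of sensory neurons, where they bind odors, tastes and pheromones. Inside the cell, G proteins and guanylate cyclases pass the signal to channels gated by cGMP or to TRPV channels, which change the voltage of the neuron. Chemoreceptors form one of the largest gene families of the worm, and most are made in few cells, so that RNA of a whole animal holds little of each. For most members the substance they detect is not known.

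RNA was taken from whole worms of the wild-type strain N2. Every worm was grown on HT115, an Escherichia coli strain for RNA interference by feeding. In controls the bacteria carried an empty vector, and in the other group they made double-stranded RNA of atp-2, which encodes a catalytic subunit of ATP synthase in mitochondria. At 0 hr and again at 20 hr there were 3 control and 2 atp-2 RNAi libraries. Single libraries of each group stood for 24 hr and 36 hr, and a control of 48 hr was set against atp-2 RNAi of 54 hr. The stated purpose was to find neuronal genes that matter when worms learn and remember to avoid a stress. The labels give neither the age of the worms nor the event from which the hours count, and do not say whether replicates came from separate cultures, so that p-values measure a spread that may be technical.

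The values were TPM, which are per length and let levels be compared between genes. Depth is unknown, because TPM keep no totals. Each time, or pair of times, had its own table, so levels from different times are set side by side only. The target atp-2 was at 110 to 136 TPM in the 0 hr atp-2 RNAi libraries against 1814 to 2097 TPM in their controls, and at 172 to 197 against 1389 to 1910 TPM at 20 hr. It was lower in each atp-2 RNAi library than in its control at the later times too. The lowest correlation between replicates, across genes as log2(TPM + 1), was 0.989. Changes at 0 hr and 20 hr below are differences of log2(TPM + 1) with their standard error (SE) and a Benjamini-Hochberg adjusted p from limma, over the genes whose mean reached 1 TPM in the libraries compared. Adding 1 makes the change of a low gene smaller than its ratio of TPM.

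The members came from 17 of 25 name prefixes. There were 6 members of 193 str genes, 4 each of the srx, srw and sri families, 3 each of srr, srh, srd and sra, and 2 each of srv and srz. The sru, srj, srsx, sre, srg, sro and srm families had 1 each. Small families held the highest shares, with 3 of 9 srr genes, 1 of 6 srm genes and the sole sro gene. None of 70 srbc, 62 srt or 23 srab genes reached the level. Chromosome V, the home of 67.6% of all chemoreceptor genes, held 22 members or 53.7%, and chromosome II held 8. In the Ensembl gene models the longest coding sequence of a member encoded a median of 335 residues and had a median of 6 exons. The Ensembl coordinates equal the deposited ones for only 6 of the 41 members, and not for srw-86, so the models may differ from those the authors used. The shortest, srw-86 with 91 residues in 2 exons, was also among the 5 members of highest level.

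Few members were neighbours. The genes sri-29 and sri-30 lie side by side on chromosome II, srr-4 and srr-6 lie 4165 bases apart on chromosome V, and srw-85 and srw-86 lie 28725 bases apart on the same chromosome. Near genes could be close to silent: sru-38, at 463 bases from sru-40, had a mean of 0.0069 TPM. Reads of near-identical copies and of overlapping genes could be split wrongly, and the strand setting of the counting is not given in the sources used here. This touches sre-4, which shares 161 bases with T13F2.6 on the other strand, a gene at a mean of 41.8 TPM, and srh-48, which shares 534 bases with a pseudogene at 1.70 TPM.

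The levels were low and uneven. The 8 members of highest mean were srr-4 with 20.3, srv-1 with 19.7, srw-85 with 19.7, sri-40 with 16.8, srw-86 with 14.1, str-176 with 8.66, sru-40 with 5.59 and srh-237 with 4.86 TPM. Summed over the 41 members, the level was 226 to 298 TPM in the 7 atp-2 RNAi libraries. It was 83.5 to 113 TPM in 8 of 9 controls and 188 TPM in the control of 24 hr. The median member was at 0.148 to 0.564 TPM in the 0 hr and 20 hr controls, 2.42 to 3.49 TPM in the atp-2 RNAi libraries of those times, and 1.14 to 2.40 TPM in the controls of 24 to 48 hr. Between 7 and 13 members lay above 1 TPM in a control of 0 hr or 20 hr, 30, 23 and 21 in the controls of 24, 36 and 48 hr, and between 34 and 39 in each atp-2 RNAi library. The highest of the 16 levels fell in an atp-2 RNAi library for 34 members, most often that of 24 hr (14 members) or one of 20 hr (10 members), and in a control for 7. Among the 13750 genes that reached the same level the highest fell in an atp-2 RNAi library for 40.5%. A member that is low in controls reaches the level only through the atp-2 RNAi libraries.

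**Figure D1:**
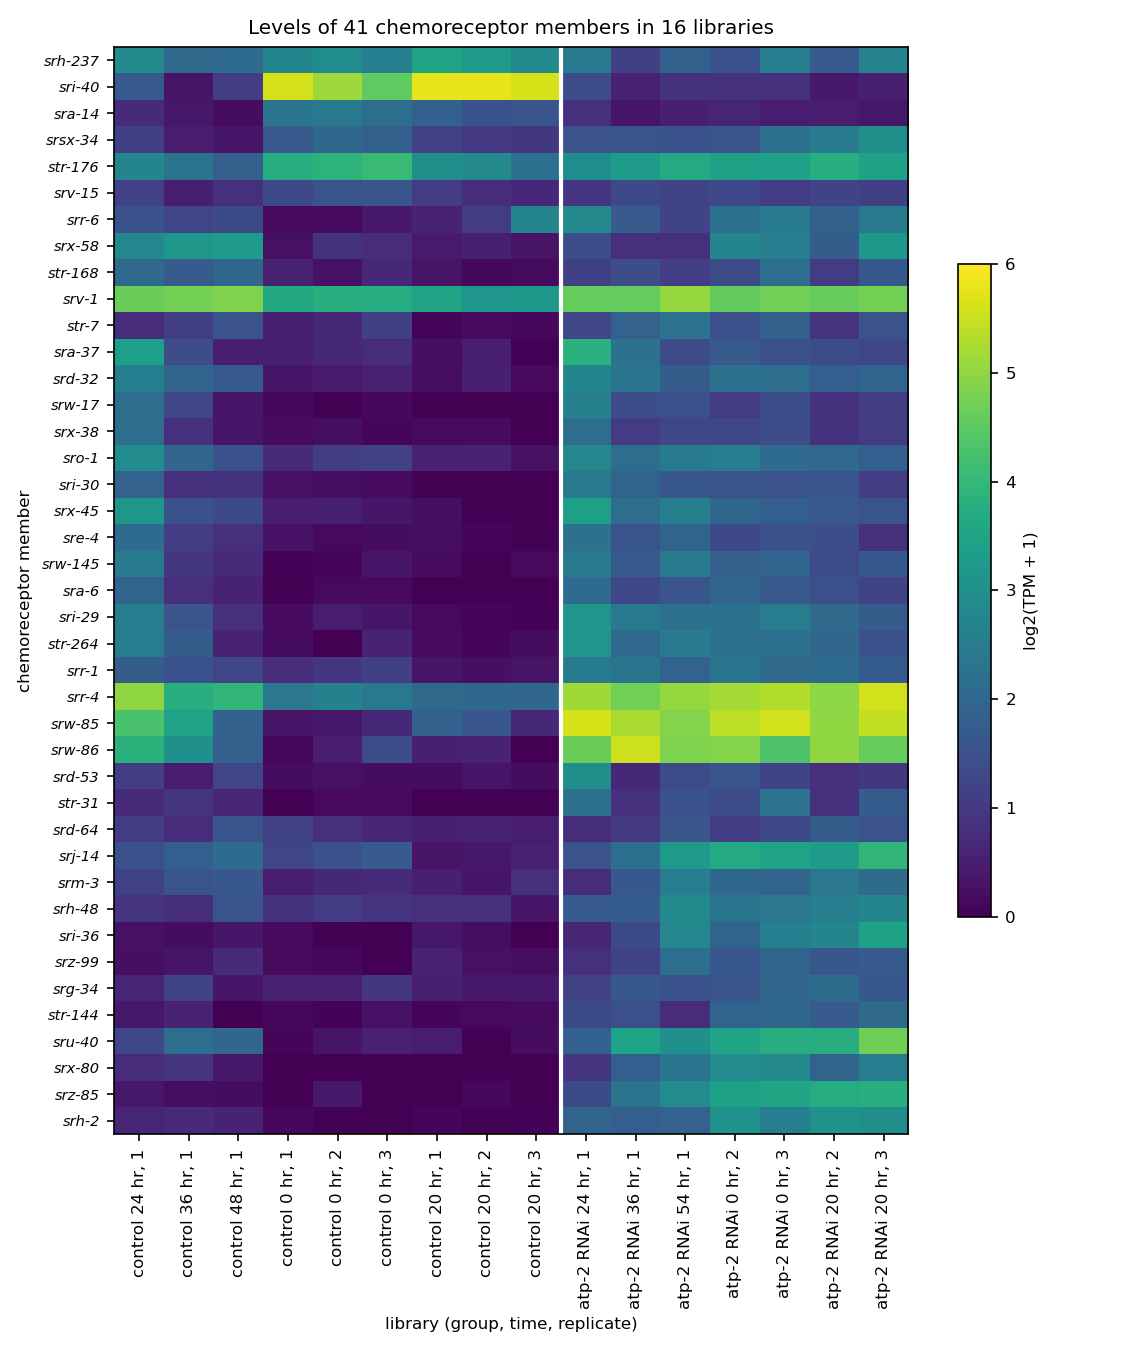
Level of each of the 41 members (rows) in each of the 16 libraries (columns) as log2(TPM + 1), from dark (0) to bright (6), with controls left and atp-2 RNAi right of the white line. Rows were ordered by likeness of pattern; sri-40 is bright in the 6 controls of 0 hr and 20 hr only, and most other rows are darkest there.

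At 0 hr most members were higher under atp-2 RNAi. Both atp-2 RNAi libraries lay above all 3 controls for 34 of the 41 members and below them for 4, and the groups overlapped for 3. Among the 13750 genes that reached the same level, 48.8% lay above and 40.9% below in this way. For 36 members the mean over the 5 libraries was high enough for the test, and 29 passed as higher and 3 as lower. Of all 14094 genes tested, 43.7% passed as higher and 39.6% as lower. The median change was 1.70 among the tested members and 0.13 among all tested genes. A member that is near 0 in controls is tested only if it is high under atp-2 RNAi, so the count describes these 36 genes. The 5 members left out, sri-30, sre-4, srw-17, srd-53 and srx-38, had means of 1.40 to 1.93 TPM under atp-2 RNAi and 0.0675 to 0.169 TPM in controls. With no filter on low values, all 41 were tested and 34 passed as higher and 3 as lower, against 31.8% and 24.5% of 25225 genes.

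The largest rise at 0 hr was that of srw-85, a class W receptor on chromosome V (19429440 to 19431687, minus strand, WBcel235, the build of the deposited coordinates used here throughout). It was at 41.5 and 47.2 TPM in the atp-2 RNAi libraries and at 0.256, 0.301 and 0.615 TPM in controls. The groups lay far apart, and the change was 5.03 (SE 0.20, adjusted p = 8.49e-07). Its neighbour srw-86 (chromosome V, 19400142 to 19400715, minus strand) was at 28.7 and 18.96 TPM against 0.0963, 0.375 and 1.61 TPM. That change was 3.95 (SE 0.38, adjusted p = 3.99e-05), again with no overlap. Together both genes made up 66.2 to 70.3 TPM under atp-2 RNAi, and at most 2.22 TPM in a 0 hr control.

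The class Z receptor srz-85 (chromosome I, 10724161 to 10726136, minus strand) was listed at 0 in 2 controls and at 0.319 TPM in the other, and at 9.61 and 10.7 TPM under atp-2 RNAi. The class U receptor sru-40 (chromosome V, 9832742 to 9834000, minus strand) was at 10.4 and 12.6 TPM against 0.0778, 0.259 and 0.466 TPM. Both rose, by 3.35 (SE 0.21, adjusted p = 5.91e-06) and 3.30 (SE 0.22, adjusted p = 6.69e-06). The class X receptor srx-80 was listed at 0 in all 6 controls of 0 hr and 20 hr. Under atp-2 RNAi it was at 6.39 and 6.05 TPM at 0 hr, a change of 2.85 (SE 0.18, adjusted p = 5.79e-06).

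The class R receptor srr-4 (chromosome V, 5019224 to 5022369, plus strand) was at 35.7 and 38.5 TPM against 4.18, 5.18 and 4.40 TPM, an 8.09-fold ratio of means and a change of 2.77 (SE 0.17, adjusted p = 4.93e-06). The class V receptor srv-1 (chromosome III, 6851254 to 6853130, plus strand) was at 22.4 and 25.3 TPM against 11.4, 12.6 and 12.03 TPM, a 1.99-fold ratio. Its change of 0.93 (SE 0.15, adjusted p = 0.000693) passed on the TPM as deposited, and turned to -0.09 when the libraries were scaled to pan-neuronal genes, as described further on. The remaining 22 members that passed as higher, named in the plots or later, changed by 0.88 (str-7) to 2.76 (srh-2).

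**Figure D2:**
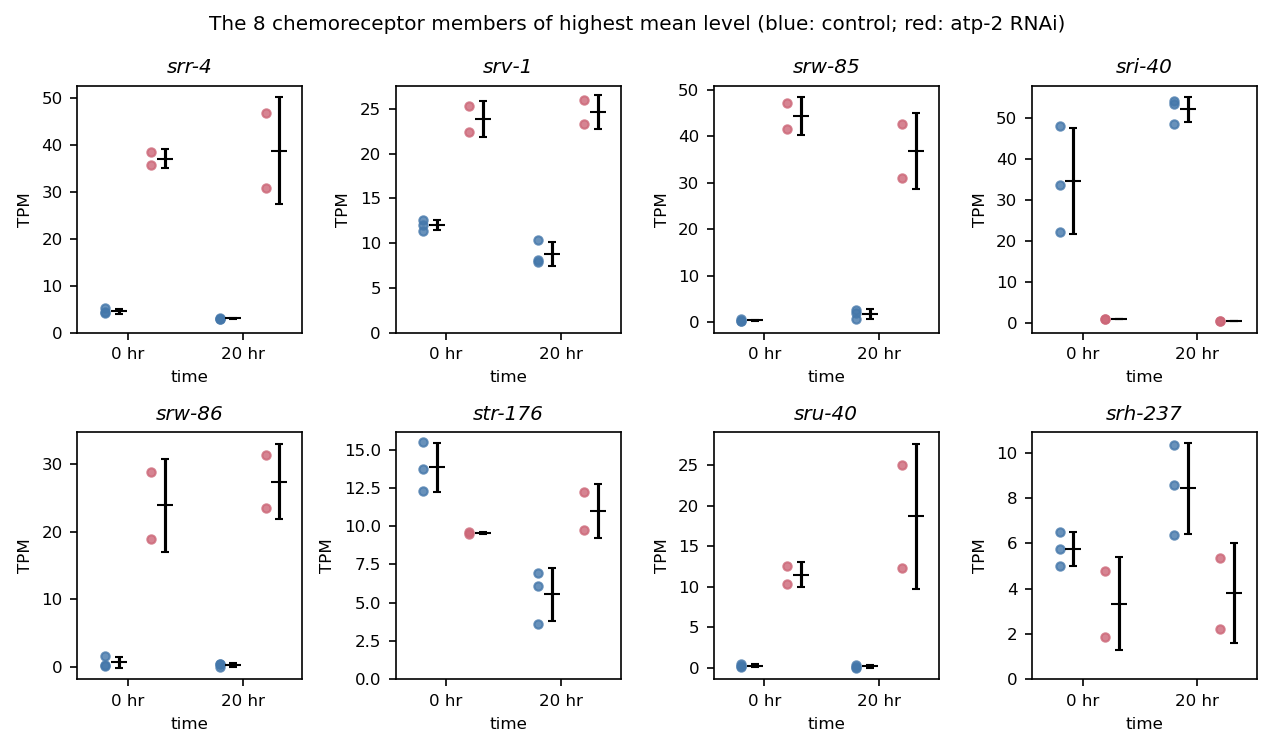
TPM of the 8 members of highest mean level at 0 hr and 20 hr, with 1 point per library (blue: 3 controls, red: 2 atp-2 RNAi libraries) and a bar for the mean and SD. For srr-4, srw-85, srw-86 and sru-40 the red points lie far above the blue ones, for sri-40 far below, and str-176 lies below at 0 hr and above at 20 hr.

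The 3 members that fell at 0 hr were sri-40, sra-14 and str-176. The class I receptor sri-40 (chromosome II, 3177963 to 3180476, plus strand) was at 48.1, 33.7 and 22.1 TPM in controls and at 0.822 and 0.823 TPM under atp-2 RNAi. This was a 42.1-fold lower mean, and the gene fell by 4.22 (SE 0.30, adjusted p = 1.01e-05). The class A receptor sra-14 was at 4.02, 4.39 and 3.46 TPM against 0.547 and 0.381 TPM and fell by 1.76 (SE 0.19, adjusted p = 8.17e-05). The gene str-176 (chromosome IV, 8460999 to 8463816, minus strand) was at 12.3, 13.7 and 15.5 TPM in controls against 9.61 and 9.51 TPM, and fell by 0.49 (SE 0.17, adjusted p = 0.0281). That last call was lost without control replicate 2 (adjusted p = 0.0932), atp-2 RNAi replicate 2 (0.121) or atp-2 RNAi replicate 3 (0.13). The 4 tested members that did not pass were srh-237 with a change of -0.72 (adjusted p = 0.0557), srv-15 with -0.28, srsx-34 with 0.06 and srd-64 with 0.31.

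At 20 hr most members were again higher under atp-2 RNAi. Both atp-2 RNAi libraries lay above all 3 controls for 37 members and below for 3, and they overlapped for 1, against 52.9% above and 39.2% below of 13750 genes. Of 28 members tested, 24 passed as higher and 3 as lower, beside 47.7% and 40.7% of 12916 genes. The median change was 1.68 among these members and 0.31 among all tested genes. The 13 members not tested had means of 0.834 to 2.06 TPM under atp-2 RNAi, and at most 0.796 TPM in controls. With no filter, 36 of 41 passed as higher and 2 as lower, against 38% and 22.7% of 24593 genes. The 28 members tested at 20 hr were all tested at 0 hr too. Of these, 21 passed as higher at both times, and sri-40 and sra-14 as lower at both. On the TPM as deposited, str-176 passed as lower at 0 hr and higher at 20 hr, and its 20 hr call turned after scaling to pan-neuronal genes. How many of all genes passed at both times was not counted, so this describes the members only.

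Of the 6 largest rises at 20 hr, 5 were also among the 6 largest at 0 hr. The gene srw-86 was at 31.3 and 23.4 TPM against 0.439, 0.496 and 0 TPM, a change of 4.44 (SE 0.24, adjusted p = 2.33e-06). For sru-40 the levels were 12.3 and 25.01 TPM against 0.379, 0.0266 and 0.142 TPM, and the change was 3.99 (SE 0.30, adjusted p = 8.44e-06). The 2 atp-2 RNAi libraries were far apart, and both lay above the controls. For srw-85 the levels were 31.05 and 42.6 TPM against 2.60, 2.02 and 0.628 TPM, and the change was 3.84 (SE 0.35, adjusted p = 2.09e-05).

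Next came srz-85 at 12.1 and 12.5 TPM, with controls at 0, 0.0865 and 0 TPM (change 3.69, SE 0.16, adjusted p = 1.14e-06). For srr-4 the levels were 30.8 and 46.9 TPM against 3.20, 2.98 and 2.93 TPM (change 3.27, SE 0.21, adjusted p = 4.39e-06). The class J receptor srj-14 was at 8.85 and 14.3 TPM against 0.255, 0.307 and 0.469 TPM (change 3.20, SE 0.23, adjusted p = 6.75e-06). In all of these the groups stood apart. The gene sri-40 was at 0.333 and 0.444 TPM against 53.6, 54.1 and 48.6 TPM, which made it the highest member of each 20 hr control. It fell by 5.26 (SE 0.16, adjusted p = 3.12e-07), and sra-14 fell by 1.23 (SE 0.18, adjusted p = 0.000356).

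Also lower at 20 hr was srh-237 (chromosome V, 17090362 to 17091693, plus strand), at 2.23 and 5.35 TPM against 10.4, 8.58 and 6.36 TPM. It fell by 1.04 (SE 0.32, adjusted p = 0.0163), and the call was lost without control replicate 1 (adjusted p = 0.0711) or atp-2 RNAi replicate 2 (0.14). Its atp-2 RNAi libraries were also uneven at 0 hr, with 1.87 and 4.78 TPM. The only tested member that did not pass was srr-6, in which 1 control stood high. It was at 5.48 TPM in control replicate 3, against 0.484 and 1.06 TPM in the other controls and 2.67 and 4.68 TPM under atp-2 RNAi (change 0.75, SE 0.58, adjusted p = 0.246).

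The size of the change differed between 20 hr and 0 hr for 6 of the 31 members tested in a fit of all 10 libraries, with 4 higher and 2 lower at 20 hr. Of all 13679 genes, 21.1% passed as higher and 21.9% as lower. The largest difference was that of srsx-34, at 1.99 and 3.67 TPM against 2.18, 3.02 and 2.63 TPM at 0 hr, and 4.63 and 6.79 TPM against 1.26, 1.004 and 0.963 TPM at 20 hr. Its groups overlapped at 0 hr and stood apart at 20 hr, and the changes differed by 1.62 (SE 0.33, adjusted p = 0.00448). For str-176 the controls were at 6.93, 6.07 and 3.60 TPM at 20 hr, below their own 0 hr level, while the atp-2 RNAi libraries were at 12.3 and 9.77 TPM. Its changes differed by 1.39 (SE 0.33, adjusted p = 0.00858). Its rise of 0.91 at 20 hr (adjusted p = 0.0123) turned to -0.63 after scaling to pan-neuronal genes, where it passed as lower (adjusted p = 0.0296). The difference no longer passed after that scaling (0.77, adjusted p = 0.0524).

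The other differences were smaller. They were 1.12 for srj-14 (adjusted p = 0.0189), 0.82 for srd-64 (adjusted p = 0.0362), -1.19 for srw-85 (adjusted p = 0.047) and -1.04 for sri-40 (adjusted p = 0.0424). Each of these 4 lost its call when some single library was left out, srj-14 without atp-2 RNAi replicate 3 of 0 hr (adjusted p = 0.0636) or of 20 hr (0.056). For srw-85 leaving out any of 8 of the 10 libraries ended the call, with adjusted p-values from 0.0534 to 0.147. For sri-40 any of 8 libraries did so, with adjusted p-values from 0.0596 to 0.102. With no filter on low values, 3 members passed as higher and 1 as lower, beside 12.1% and 9.8% of 26967 genes. After scaling to pan-neuronal genes 2 passed as higher and 3 as lower, beside 13.8% and 45.8% of genes, and after the shift to their median 1 and 9, beside 10.1% and 49% of genes. For the remaining 25 members the difference was not shown, which does not mean that the changes were equal.

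**Figure D3:**
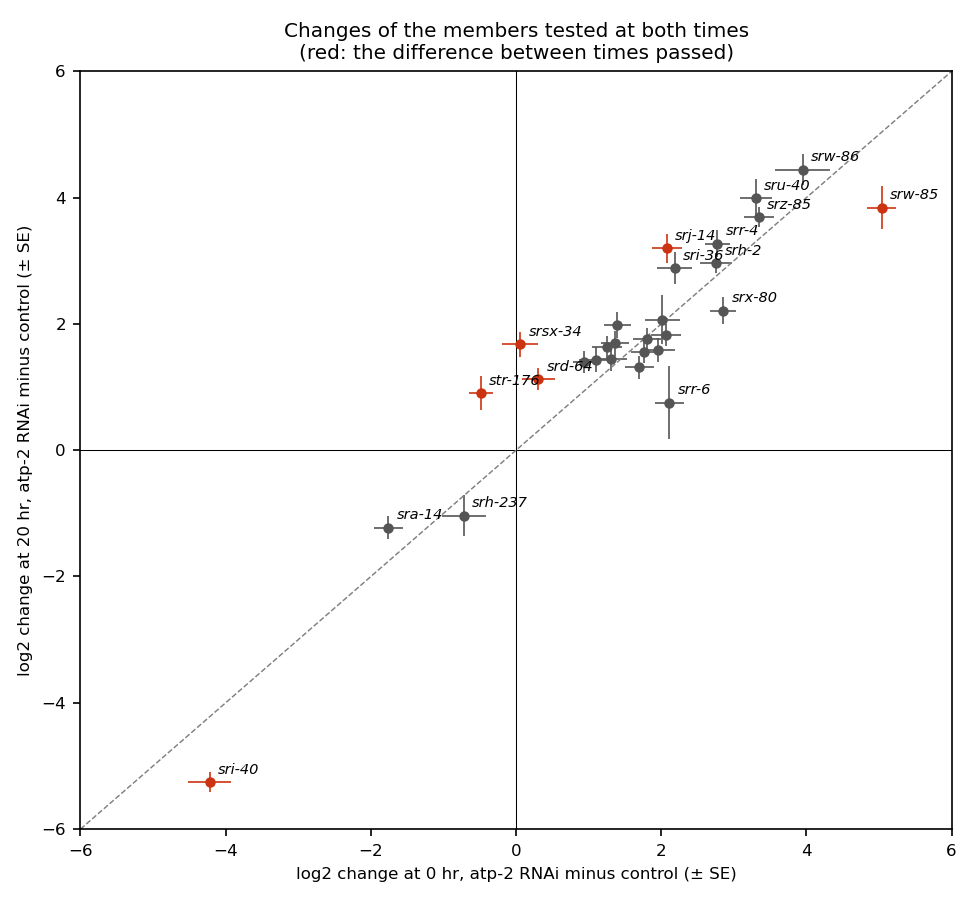
Change of log2(TPM + 1), atp-2 RNAi minus control, at 0 hr (horizontal) and 20 hr (vertical) for the members tested at both times, with bars for the SE and a dashed line of equal change. Most points lie in the upper right; sri-40, sra-14 and srh-237 lie in the lower left, and the 6 red points passed the test of the difference.

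Later pairs had 1 library per group, so no test and no replicate check was possible, and a ratio of TPM + 1 above 2-fold was only counted. At 24 hr 5 of 32 members whose pair mean reached 1 TPM were past 2-fold higher under atp-2 RNAi and 1 was lower, beside 6.41% and 4.1% of 12548 genes. At 36 hr it was 8 of 32 higher and 1 lower, beside 7.57% and 5.56% of 12416 genes. For 54 hr against 48 hr it was 20 of 36 higher and 1 lower, beside 17.8% and 14.9% of 13473 genes. In that last pair the groups also differ in time, so RNAi and time cannot be told apart. The median log2 ratio of members was 0.30, 0.76 and 1.11 in this order, and that of all genes 0.13, 0.15 and 0.17.

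The pair of genes srw-85 and srw-86 stood out again. The level of srw-85 was 48.7 against 18.5 TPM at 24 hr, 36.9 against 10.2 TPM at 36 hr and 28.5 against 2.63 TPM in the last pair. The level of srw-86 was 24.2 against 13.4, 45.5 against 7.13 and 27.5 against 2.57 TPM. For both, each of the 7 atp-2 RNAi libraries was above each of the 9 controls, and the controls lay in the order 24, 36 and 48 hr from high to low. At 24 hr the highest ratios belonged to srd-53, with 6.81 against 1.12 TPM, and str-31, with 3.65 against 0.674 TPM. At 36 hr srz-85 followed srw-86, with 3.95 against 0.167 TPM, and in the last pair it had 6.45 against 0.151 TPM.

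A single member, srx-58, was past 2-fold lower in each of the 3 pairs. It was at 1.72 against 5.80 TPM at 24 hr, 0.790 against 7.99 TPM at 36 hr and 0.784 against 9.03 TPM in the last pair. At 0 hr its direction was the opposite, with 5.71 and 4.84 TPM under atp-2 RNAi against 0.207, 0.825 and 0.682 TPM (change 2.02, SE 0.24, adjusted p = 0.000116). At 20 hr it was at 2.44 and 8.26 TPM against 0.361, 0.442 and 0.237 TPM (change 2.07, SE 0.38, adjusted p = 0.00117). So the class X receptor srx-58 was high in controls of 24 to 48 hr and in atp-2 RNAi libraries of 0 hr and 20 hr. The gene str-168, chosen after its values were seen, was also higher in late controls, with 2.98 TPM in the 48 hr control, 1.12 TPM in the 54 hr atp-2 RNAi library and at most 0.604 TPM in a 0 hr or 20 hr control. Under atp-2 RNAi it was at 1.64 and 3.49 TPM at 0 hr, where it passed as higher (change 1.28, SE 0.27, adjusted p = 0.00276). At 20 hr it was at 1.09 and 2.14 TPM under atp-2 RNAi and was not tested.

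Some members had high levels at 24 hr in both groups. The class A gene sra-6, whose reporter is known from the nociceptive neuron ASH, was at 3.30 and 2.81 TPM in the 24 hr atp-2 RNAi and control libraries. At 0 hr it was at 2.91 and 2.199 TPM against 0.028, 0.118 and 0.103 TPM (change 1.71, SE 0.19, adjusted p = 9.6e-05), and in 2 of 3 controls of 20 hr it was listed at 0. The gene sra-37 ran from 13.2 and 9.48 TPM at 24 hr to 1.57 and 0.417 TPM in the last pair. The class X receptor srx-45 was at 9.43 and 8.06 TPM at 24 hr and at most 0.447 TPM in a 0 hr or 20 hr control. The opsin-class receptor sro-1 was at 5.83 and 6.48 TPM at 24 hr, 4.69 and 3.25 TPM in the 0 hr atp-2 RNAi libraries, and 0.676, 1.12 and 1.23 TPM in the 0 hr controls. In each of these 4 genes the 24 hr control lay above all 6 controls of 0 hr and 20 hr; apart from sra-6 they were chosen after their values were seen.

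The controls of 24 to 48 hr allow levels at 0 hr and 20 hr to be set beside every control. For 13 of the 41 members, each of the 4 atp-2 RNAi libraries of 0 hr and 20 hr was above all 9 controls, beside 14.1% of 13750 genes. For no member were the 4 below all 9 controls, beside 3.33% of genes. This compares levels from separately made tables and has no test. The 13 were srw-85, srw-86, sru-40, srj-14, srz-85, srh-48, srh-2, sri-36, srm-3, srx-80, srg-34, srz-99 and str-144. The class Z receptor srz-85 had the widest gap in ratio, with 9.61 TPM as its lowest atp-2 RNAi level at these times and 0.319 TPM as its highest control. The class H receptor srh-2 was at 4.91 to 7.39 TPM against at most 0.661 TPM in a control, and the class I receptor sri-36 at 2.82 to 9.89 TPM against at most 0.307 TPM. The gap was narrow for srm-3, with 2.91 TPM against 2.08 TPM, for srw-86, with 18.96 TPM against 13.4 TPM, and for srg-34, with 2.01 TPM against 1.35 TPM. The other 28 members overlapped with some control, often that of 24 hr.

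**Figure D4:**
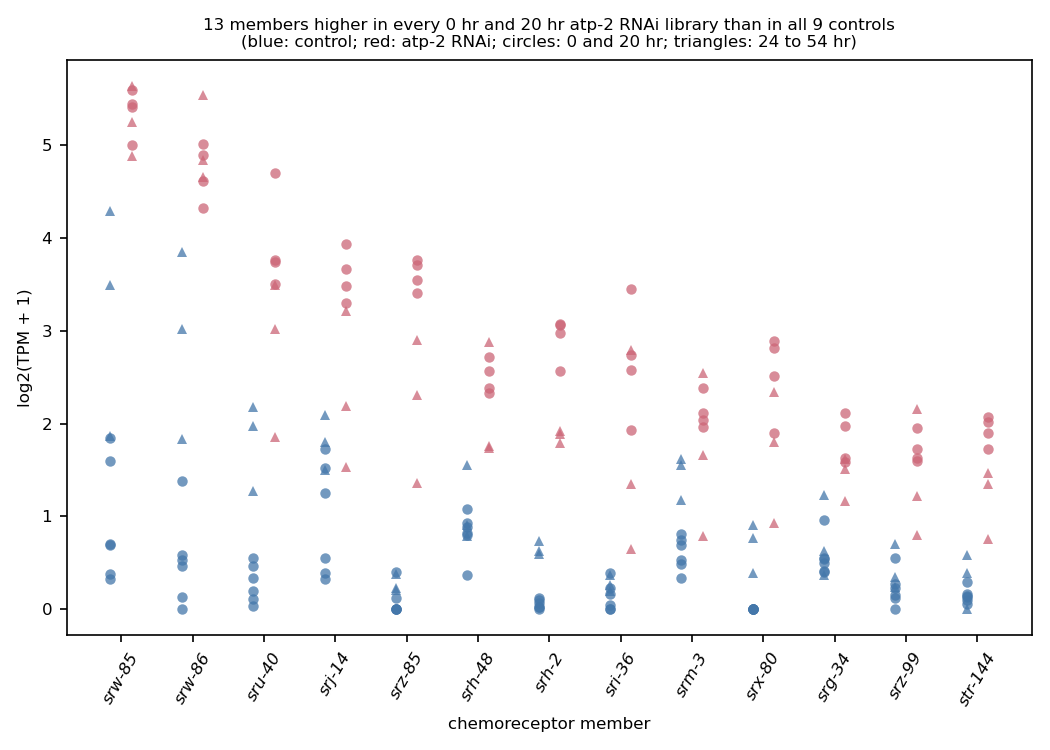
Level as log2(TPM + 1) of the 13 members whose 4 atp-2 RNAi libraries of 0 hr and 20 hr (red circles) lie above all 9 controls (blue), with 1 point per library and triangles for 24 to 54 hr. In sru-40, srj-14, srm-3 and srg-34 at least 1 red triangle lies below the highest control.

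In the 6 controls of 0 hr and 20 hr, sri-40 alone made up 26.3% to 58.5% of the summed level of the members, and at most 1.19% in the other 10 libraries. It was at 22.1 to 54.1 TPM in those 6 controls and at 0.248 to 2.23 TPM elsewhere. The gene sra-14 had the same split at a lower level, with 1.85 to 4.39 TPM in those 6 controls and at most 0.748 TPM elsewhere. Without both genes, the summed level was 32.9 to 58.5 TPM in these controls and 241 to 297 TPM in the atp-2 RNAi libraries of the same times. The 6 controls also stood apart in oocyte and germline genes, but not in sperm genes. Summed over 16 oocyte and eggshell genes they held 7396 to 16261 TPM, and the other 10 libraries at most 330.1 TPM. Summed over 19 germline genes they held 4474 to 9264 TPM, and the others at most 917 TPM. The sum over 21 sperm genes was 543 to 1309 TPM in the 0 hr controls and 8.79 to 12.5 TPM in the 20 hr controls. In the 48 hr control it was 537 TPM. The 19 germline and 16 oocyte genes passed as lower under atp-2 RNAi at both times, beside 39.6% of all genes at 0 hr and 40.7% at 20 hr. The gene perm-2 was at a mean of 0.268 against 1373 TPM at 0 hr. None of the lists' genes was at 0 in every atp-2 RNAi library. TPM are shares of the RNA of a library, and the part of germline RNA in the members' changes was not tested. In whole worms, fewer cells of a type and less RNA per cell cannot be told apart.

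Neuronal genes moved with the members. Summed over 26 pan-neuronal genes the level was 1567 to 1894 TPM in the atp-2 RNAi libraries of 0 hr and 20 hr against 808 to 899.6 TPM in their controls, and 987 to 2218 TPM in the later controls. Of the 26, 21 rose and 3 fell at 0 hr, and 18 rose and 3 fell at 20 hr. Their median change was 1.29 at 0 hr and 1.98 at 20 hr, beside 1.70 and 1.68 for the tested members. At 20 hr the median of the tested members thus lay below that of the pan-neuronal genes. Per 1000 TPM of pan-neuronal genes, the members summed to 138 to 190 TPM in the 4 atp-2 RNAi libraries of 0 hr and 20 hr and to 93.7 to 118.9 TPM in their controls, without overlap. At 24 to 54 hr the values were 101.2 to 113 TPM under atp-2 RNAi and 84.4 to 100.5 TPM in controls. A sum weighs the genes of highest level most, so the ratio and the median changes need not go the same way. Members low in controls reached the level only through the atp-2 RNAi libraries, so the selection can raise the ratio. The part of the selection in the ratio was not tested. In the controls of 0 hr and 20 hr, sri-40 alone made up 26.3% to 58.5% of the members' sum. Body wall muscle, epidermis and sensory glia moved too. At 0 hr 10 of 16 muscle genes, 11 of 13 epidermal genes and 11 of 12 glial genes passed as higher, and at 20 hr 16 of 16, 12 of 14 and 11 of 12. Of 14 intestinal genes 6 rose and 2 fell at 0 hr, and 11 rose and 1 fell at 20 hr. Of the tested sperm genes, 17 of 17 fell at 0 hr, and 1 of 5 rose and 2 fell at 20 hr. The counts of all these lists stand beside 43.7% of all genes higher and 39.6% lower at 0 hr, and 47.7% and 40.7% at 20 hr. After scaling to pan-neuronal genes, described below, 4 muscle genes passed as higher and 6 as lower at 0 hr, and 14 and 0 at 20 hr. For intestine it was 0 and 8, then 3 and 5. For epidermis it was 9 and 2, then 11 and 2, and for glia 10 and 1, then 9 and 0. The part of these lists in the members' changes was not tested.

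**Figure D5:**
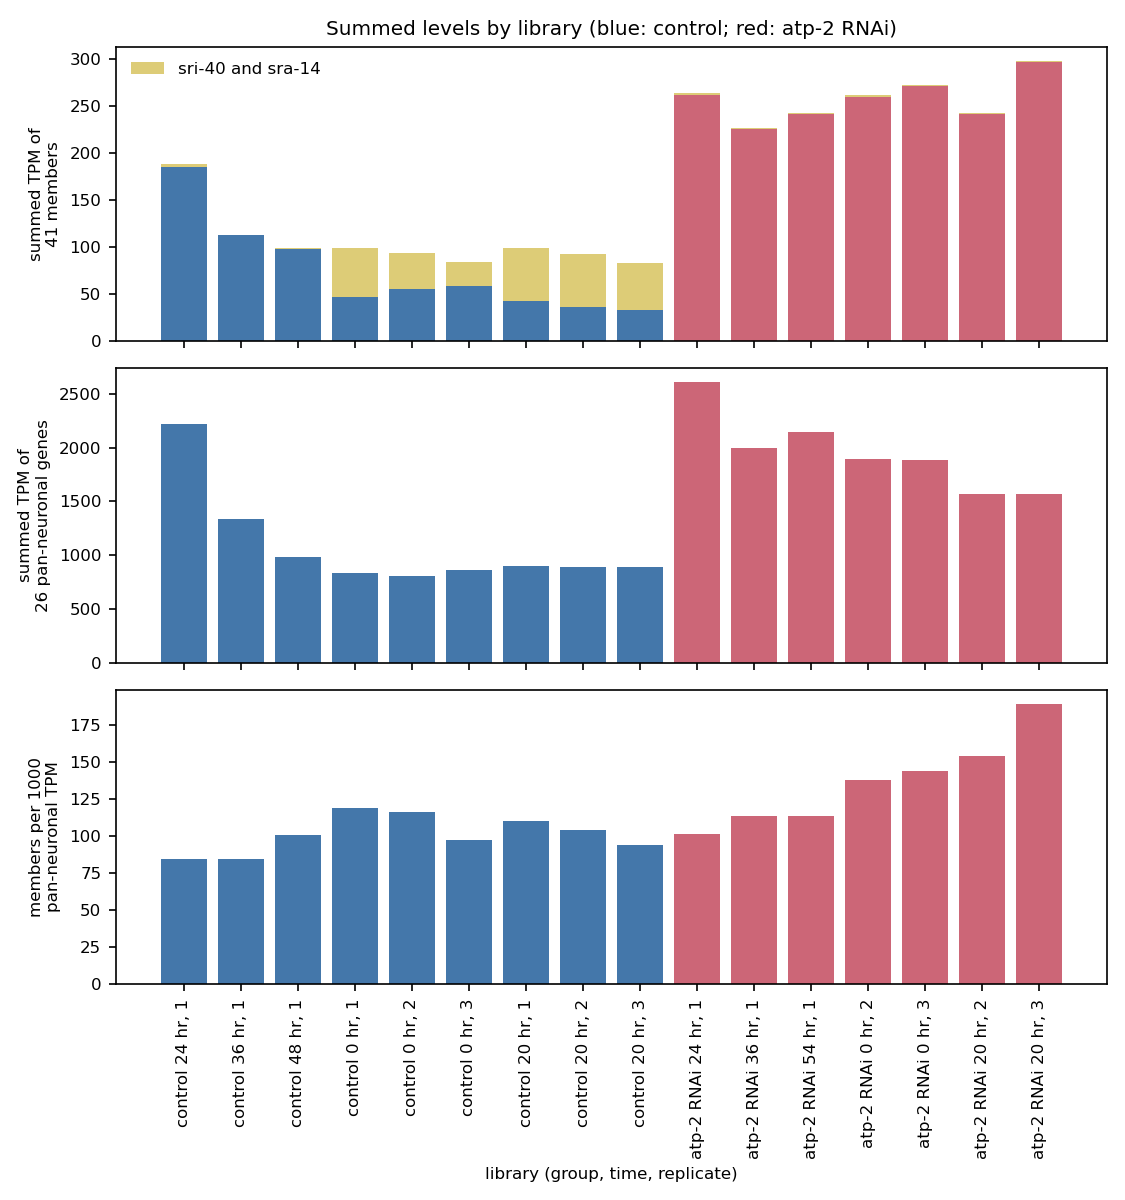
Summed TPM of the 41 members (top, with sri-40 and sra-14 in yellow), summed TPM of 26 pan-neuronal genes (middle), and their ratio per 1000 pan-neuronal TPM (bottom) in each of the 16 libraries, 1 bar each. The members sum to 226 to 298 TPM in the red atp-2 RNAi bars and 83.5 to 188 TPM in the blue controls, and the ratio is 138 to 190 in the 4 atp-2 RNAi libraries of 0 hr and 20 hr.

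Scaling the TPM of each library to the median of the pan-neuronal genes, an alternative chosen after seeing the data, moved the median change of all tested genes from 0.13 to -0.84 at 0 hr and from 0.31 to -1.26 at 20 hr. The members' median was then 1.18 at 0 hr and 0.81 at 20 hr. The pan-neuronal genes themselves did not come to 0, with medians of 0.35 at 0 hr and 0.54 at 20 hr. Of these 26 genes 12 passed as higher and 5 as lower at 0 hr, and 15 and 8 at 20 hr. At 0 hr 25 of 36 members passed as higher and 6 as lower, beside 24.3% and 55.6% of all genes, and at 20 hr 20 of 28 passed as higher and 4 as lower, beside 27.2% and 58% of genes. Subtracting the pan-neuronal shift after the logarithm, so that genes near 0 move by the shift itself, gave members' medians of 0.62 at 0 hr and -0.079 at 20 hr, beside -0.95 and -1.45 over all genes. The pan-neuronal genes then had medians of 0.21 and 0.22. At 0 hr 19 members then passed as higher and 7 as lower, beside 20.7% and 58.1% of all genes. At 20 hr 8 passed as higher and 6 as lower, beside 18.6% and 61.9% of genes. The direction turned from higher to lower for 5 of 36 members at 0 hr and 12 of 28 at 20 hr under that shift, and for 3 of 36 and 3 of 28 under the scaling. After the scaling the gene srw-85 kept a change of 4.28 (adjusted p = 1.15e-07) at 0 hr and 2.39 (adjusted p = 2.68e-06) at 20 hr, and sri-40 one of -4.90 and -6.18. Under the scaling srv-1 had -0.09 (adjusted p = 0.694) and -0.25 (adjusted p = 0.302) at the 2 times, srr-6 had -0.44 at 20 hr (adjusted p = 0.428), and srsx-34 fell by 0.71 at 0 hr (adjusted p = 0.0163) and did not pass at 20 hr (0.43, adjusted p = 0.0759).

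The chemoreceptor genes below the level moved in the same direction in sum. The 1275 genes summed to 119.1 to 139 TPM under atp-2 RNAi against 34.6 to 39.9 TPM in controls at 0 hr, and to 108 to 126 against 19.1 to 28.4 TPM at 20 hr. In the controls of 24 to 48 hr they summed to 41.1 to 92.4 TPM. The diacetyl receptor odr-10 was at 1.32 to 3.53 TPM in the 4 atp-2 RNAi libraries of 0 hr and 20 hr, at most 0.752 TPM in their controls and at most 1.02 TPM in the other 6 libraries.

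The lists below hold genes of sensory signaling, of receptor transport to the cilium and of the control of chemoreceptor expression. Their counts stand beside 43.7% of all genes higher and 39.6% lower at 0 hr, 47.7% and 40.7% at 20 hr, and after scaling to pan-neuronal genes 24.3% and 55.6% at 0 hr and 27.2% and 58% at 20 hr. As for the members, a gene near 0 in controls is tested only if it is high under atp-2 RNAi. Of 21 G protein signaling genes 17 were tested at 0 hr, where 16 rose and none fell, and 14 at 20 hr, where 11 rose and 1 fell. At 0 hr the largest changes were those of the G protein alpha subunits gpa-9, at a mean of 9.87 against 0.571 TPM (change 2.79, SE 0.19, adjusted p = 8.35e-06), and gpa-17, at 86.7 against 15.2 TPM (change 2.46). At 20 hr gpa-17 (3.80) and gpa-6 (3.06) led. After scaling to pan-neuronal genes 11 of 17 passed as higher and 1 as lower at 0 hr, and 7 of 14 and 3 at 20 hr. Of 24 cGMP pathway genes, 8 were tested at 0 hr, where 6 rose and 1 fell. They were led by the phosphodiesterase pde-3 (2.32) and the guanylate cyclase gcy-35 (1.96). At 20 hr 7 were tested and 4 rose, led by pde-3 (2.26) and pde-1 (1.83). After scaling to pan-neuronal genes 4 of 8 passed as higher and 2 as lower at 0 hr. At 20 hr 2 of 7 then passed as higher and 3 as lower. Of 5 TRPV channel genes 2 were tested, osm-9 and ocr-2, and their means reached 1 TPM largely through the atp-2 RNAi libraries. The channel subunit osm-9 was at a mean of 4.39 against 0.360 TPM at 0 hr (change 1.99, adjusted p = 6e-05) and ocr-2 at 4.51 against 0.779 TPM (change 1.64, adjusted p = 0.00018). After scaling, osm-9 had 1.37 and ocr-2 0.94 at 0 hr.

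Of 14 genes that carry receptors to the cilium, 9 were tested at 0 hr, where 5 rose and 3 fell, and 7 at 20 hr, where 2 rose and 4 fell. The adaptor subunit unc-101 fell by 1.53 (adjusted p = 7.17e-05) and 2.54 (adjusted p = 2.73e-06), and its relative apm-1 rose by 1.49 (adjusted p = 5.74e-05) and 2.30 (adjusted p = 5.33e-06). After scaling to pan-neuronal genes only 1 passed as higher and 5 as lower at 0 hr, and 1 and 6 at 20 hr. Of 29 regulators of chemoreceptor expression, 23 were tested at 0 hr, where 17 rose and 3 fell, and 22 at 20 hr, where 15 rose and 3 fell. They were led at 0 hr by the adaptor tir-1 (2.29) and the histone deacetylase hda-4 (2.13), and at 20 hr by tir-1 (3.09) and the bHLH factor hlh-2 (-2.53). After scaling, 7 passed in each direction at 0 hr, and 6 as higher and 9 as lower at 20 hr, with hda-4 at -0.39 at 20 hr. The lists were chosen with earlier results of these data known and support nothing by their counts.

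The 13 proteins caught by name alone moved in both directions. The serpin srp-7 was highest, with a mean of 147 TPM over 16 libraries, and did not pass at 0 hr (change -0.10, adjusted p = 0.472) but fell at 20 hr by 0.86 (adjusted p = 0.00109). The largest change was that of srap-1, a serine-rich adhesion protein-like gene, at 81.6 and 59.5 TPM against 2.86, 3.20 and 4.62 TPM at 0 hr (change 3.97, adjusted p = 3.78e-06) and 5.19 at 20 hr. In the 24 hr control it reached 275 TPM, above each atp-2 RNAi library. The serpin srp-8 rose by 2.79 and 3.17, and srp-6, a serpin that protects cells from necrosis, rose at 20 hr (1.42, adjusted p = 0.000155) but did not pass at 0 hr (0.41, adjusted p = 0.059). The serpin srp-2 fell by 2.23 at 0 hr and rose by 0.75 at 20 hr (difference 2.98, adjusted p = 3.67e-05), and srp-1 rose at 20 hr (1.35).

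The signal recognition particle subunit srpa-72 did not pass at either time (0.20 and -0.78). The Slit-Robo GAP homolog srgp-1 fell by 1.77 and 2.96, and the tyrosine kinase src-1 by 0.53 and 1.75, while the kinase src-2 rose by 2.25 and 1.58. The nucleotide sugar transporter srf-3, needed for glycosylation of the worm's surface, rose by 0.60 at 0 hr and fell by 0.57 at 20 hr. The serpin srp-3 did not pass at 0 hr (0.43, adjusted p = 0.197) and was not tested at 20 hr.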

How the data were processed

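Whole-worm RNA was sequenced in 16 libraries. GENEzol served for extraction and a SureSelect kit that keeps strand for library preparation, per the labels' protocols. The submitters' processing notes list bcl2fastq 2.20, TopHat, Cufflinks and the build WBcel235; other versions and the strand setting are not stated there. The deposited tables give the TPM that the authors computed for each library. A value of 0.0001 was read as 0.

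For 0 hr and for 20 hr, limma 3.58.1 in R 4.3.3 tested 2 atp-2 RNAi libraries against 3 controls. Input was log2(TPM + 1) of genes whose mean reached 1 TPM in the libraries fitted, eBayes used a trend, and p-values were adjusted by Benjamini-Hochberg at 0.05. An interaction over 10 libraries tested the difference between the times. Unreplicated pairs were counted at 2-fold, with no test. The scripts were tested on simulated data. Depth is unknown, so no counting interval or detection limit is given.

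Members and gene lists were chosen with earlier results of these data known. Named by rule were the 8 members of highest mean, the 6 largest changes per direction that passed at 0 hr, at 20 hr and for the difference, the 3 largest per direction in each pair, sra-6, the 3 genes on either side of the level, the 13 other proteins, and the 2 largest changes of each list described. The values of 1 of the 13 other proteins are not reported here. Any other gene was picked with its values in view. The alternatives tried were a pseudocount of 0.1, no filter, a median shift, a shift to the pan-neuronal median after the logarithm, the replicate number as a block, a 4-fold count, and leaving out each library. Scaling to pan-neuronal genes before the logarithm was added after seeing the data. Sums and figures were made with Python 3.11.15, numpy 2.4.6, pandas 2.3.3 and matplotlib 3.10.9.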

Additional observations from a re-analysis of the deposited data

Results flagged for a closer look

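The change under atp-2 RNAi differed between 20 hr and 0 hr, by the test of the difference in limma (Benjamini-Hochberg adjusted), for 6 members. The difference was 1.62 for srsx-34, 1.39 for str-176, 1.12 for srj-14 and 0.82 for srd-64, each higher at 20 hr. It was -1.19 for srw-85 and -1.04 for sri-40. For srw-85 the 0 hr controls were at 0.256 to 0.615 TPM and the 20 hr controls at 0.628 to 2.60 TPM. For sri-40 the 0 hr controls spread from 22.1 to 48.1 TPM and the 20 hr controls from 48.6 to 54.1 TPM. For str-176 and srsx-34 the controls were lower at 20 hr than at 0 hr, and for srj-14 too, with 0.255 to 0.469 TPM against 1.38 to 2.31 TPM. The call of srsx-34 held in each fit that left out a library, whereas those of srw-85, sri-40, srj-14 and srd-64 did not.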

How the results depend on the processing

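Only 2 atp-2 RNAi libraries stood at each replicated time, depth is unknown, and TPM are shares of a library. Leaving out 1 library kept direction and side of the threshold in 177 values, ended the call in 29, gained it in 1 and reversed 2, and the other alternatives did so in 194, 16, 3 and 14. Without a library, 19 to 30 members passed as higher and 2 to 3 as lower at 0 hr, 14 to 26 and 2 to 3 at 20 hr, and 2 to 6 and 0 to 2 for the difference. The low counts were 19 without atp-2 RNAi replicate 3 at 0 hr, and 14 and 15 without atp-2 RNAi replicate 2 or 3 at 20 hr, where fewer members passed the filter. Of all genes, 5299 to 6426 passed as higher and 5098 to 5513 as lower at 0 hr, 5391 to 6280 and 4991 to 5270 at 20 hr, and 2206 to 3150 and 1394 to 3396 for the difference. After a shift to the pan-neuronal median, made after the logarithm so that genes near 0 move by the shift itself, 19 members were higher and 7 lower at 0 hr, 8 and 6 at 20 hr, and 1 and 9 for the difference. All genes higher were then 2916, 2397 and 1387, and all genes lower at 20 hr 7995 and for the difference 6708. After scaling before the logarithm, 6 members were lower at 0 hr and 2 higher for the difference, and all genes higher were 3424, 3516 and 1891, with 6269 lower for the difference. With no filter, 9342 genes were higher at 20 hr and 1 member was lower for the difference.

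In the pairs, a 4-fold count gave 0 higher and 0 lower members at 24 hr, 2 higher at 36 hr and 4 higher at 54 against 48 hr. A pseudocount of 0.1 gave 2 lower in each pair and 16 higher at 36 hr. A median shift gave 2 lower in each pair, and 4 and 13 higher in the later ones. The shift and the scaling to pan-neuronal genes gave 3 higher each at 36 hr, 8 and 9 in the last pair, and 2 lower in both. These counts are out of 32, 32 and 36 members at 24 hr, 36 hr and 54 against 48 hr. Shares of all genes at these settings are not given, so the counts do not set the members beside other genes. Among members named by the rule, directions turned after the pan-neuronal shift and scaling for srv-1 at 0 hr (-0.15 and -0.086) and 20 hr (-0.37 and -0.25), srd-64 at 0 hr (-0.77 and -0.24), srsx-34 at 0 hr (-1.02 and -0.71) and str-176 at 20 hr (-0.85 and -0.63). After the shift alone they turned for srsx-34 (-0.086) and srd-64 (-0.63) at 20 hr. Over all tested members the shift turned 5 of 36 at 0 hr, sra-37 and str-7 besides those named, and 12 of 28 at 20 hr, among them srd-32, srg-34, srm-3, sro-1, srr-1, srr-6, srz-99 and str-264, and the scaling also turned srr-6 at 20 hr. The 0 hr value of srsx-34 was also -0.088 after a median shift and -0.032 with the replicate block, and ran from -0.26 (without atp-2 RNAi replicate 3) to 0.38 when 1 library was left out, with -0.032 without control replicate 1. The cause was not tested. With the replicate number as a block, over replicates 2 and 3, 30 of 36 members passed as higher and 3 as lower at 0 hr. At 20 hr it was 25 and 3 of 29 members, and for the difference 3 and 2 of 36. Of all 14238 genes tested at 0 hr, 6149 then passed as higher and 5477 as lower. At 20 hr it was 6311 and 5108 of 13070 genes, and for the difference 2767 and 2434 of 13834. Same-numbered libraries did not deviate together (r = -0.0256 over 14094 genes at 0 hr and -0.0337 over 12916 genes at 20 hr). The labels do not say whether they pair.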
